A study of Mus musculus with 9 samples.

Results

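The genes described here are 9 neurogenic genes of the mouse: the transcription factors Insm1, Neurog2, Neurod1, Eomes, Tbr1, Sox4 and Sox11, the transcription cofactor Lmo3, and Dcx, a protein of migrating young neurons. They are the rows of the deposited RNA-seq table that carry one of these 9 symbols, of 25965 rows in all. The members were chosen by their symbols with the log2 differences between Smchd1-deleted and undeleted cultures already known, in which Insm1 and Lmo3 had been called lower. Those differences are therefore given below as a description and carry no p-value.

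The RNA came from neural stem cell lines of C57BL/6 mice, derived from embryos of embryonic day 14.5 that were homozygous for a floxed allele of Smchd1, a chromatin protein with a role in gene silencing. For the del/del cultures, part of each line was infected with MSCV-Cre-puro, a retrovirus that carries Cre recombinase and puromycin resistance; puromycin was given from 24 h, and the cells were collected on day 7. The fl/fl cultures are the untransduced part of the same lines, so the loss of Smchd1 cannot be told apart from the virus and the drug. There were 3 female del/del libraries (lines 1, 2 and 3), 1 male del/del library (line 5), 3 female fl/fl libraries (lines 1, 2 and 3) and 2 male fl/fl libraries (lines 5 and 7). The design text of the series calls all lines female and the controls del/fl, and the sample labels were followed instead. The male effect rests on a single del/del library. No label says that the lines came from separate embryos, so p-values measure the spread between these lines only.

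In the developing mouse cortex the proneural factor Neurog2 starts a programme in which dividing progenitors become intermediate progenitors, marked by Eomes and Insm1, and then neurons, marked by Neurod1, Dcx and Tbr1. INSM1 is a zinc finger repressor that binds the histone demethylase KDM1A, and it is needed for progenitors to leave the ventricular surface in the mouse. SOX4 and SOX11 act in the same lineage as activators of neuronal genes. Cultured neural stem cells are kept dividing by growth factors.

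Smchd1 itself, the check of the labels, averaged 5.21 ± 0.132 log2 RPM (reads per 1000000) in the del/del libraries (SD, n = 4) and 6.39 ± 0.248 in the fl/fl libraries (SD, n = 5), which was 2.28-fold lower (limma, adjusted p = 0.00751). Reads in genes ranged from 12.9 to 44.9 M per library. The shallowest library, female fl/fl 2, also had the largest share of its reads in listed genes, 53.3%, so the values that it moves most are also given without it. All 12 neural stem cell markers passed the filter on low values, which asked for 0 log2 RPM or more in 3 or more libraries. The most abundant of them were Nes, Vim and Egfr, with log2 differences of -0.19, -0.13 and -0.10; their median was -0.03, they summed to 637 to 850 RPM in del/del and 601 to 1168 RPM in fl/fl libraries, and 0 of the 12 passed the test. In RNA of whole cultures, fewer cells of a type and less RNA per cell cannot be told apart.

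Per length of exon the members of the programme differed widely in level. Sox4 had 16.8 RPM per kb in del/del and 17.8 in fl/fl cultures on average, and Sox11 had 13.5 in del/del and 12.2 in fl/fl cultures. Lmo3 came next, at 1.95 RPM per kb in del/del and 2.93 in fl/fl cultures, and then Insm1, at 1.09 in del/del and 1.98 in fl/fl cultures. Eomes (0.201 in del/del, 0.213 in fl/fl) and Dcx (0.170 in del/del, 0.202 in fl/fl) lay lower, and Tbr1, Neurog2 and Neurod1 averaged below 0.1 in both groups. Without female fl/fl 2 the fl/fl mean was 14.6 for Sox4 and 0.1995 for Eomes, both below the del/del mean. The direction between these means of RPM per kb thus turns for these genes. For Eomes the means are close, and its log2 difference lay below 0 in 17 of 18 alternative fits and above 0 in 1. The ranges of Sox4 and Sox11 overlapped, as did those of Eomes and Dcx, so the order within those pairs is not fixed. The rows of Dcx and Lmo3 also span long introns (77470 bp with 12647 bp of exon for Dcx), and reads anywhere in the row are counted.

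**Figure D1:**
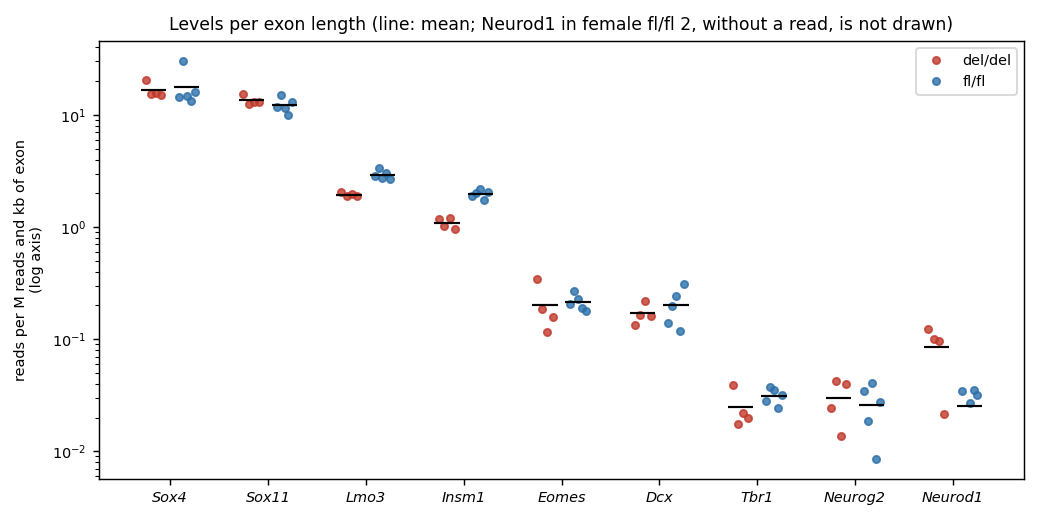
Level of each gene per kilobase of exon (RPM per kb, log axis), 1 point per library, del/del left of fl/fl, with lines at the group means; the female fl/fl 2 library is not drawn for Neurod1, where it had no read. Sox4 and Sox11 lie highest, Lmo3 and Insm1 in the middle, and Neurod1, Neurog2 and Tbr1 lowest.

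Insm1 lies on chromosome 2 of mm10 (146221921 to 146225016, plus strand) and has a single exon that fills the whole row, 3096 bp. It measured 1.87, 1.65 and 1.895 log2 RPM in female del/del 1, 2 and 3 and 1.58 in male del/del 5. In female fl/fl 1, 2 and 3 it measured 2.56, 2.63 and 2.77, and in male fl/fl 5 and 7 it measured 2.44 and 2.67. The highest del/del library therefore lay below the lowest fl/fl library, and the groups did not overlap, as was the case, in this direction, for 0.99% of all filtered genes. Read counts behind these values were 270 to 368 in del/del cultures and 149 to 748 in fl/fl cultures.

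Over both sexes Insm1 was 1.85-fold lower in del/del cultures, a log2 difference of -0.89 (SE 0.117). It was number 5 in size among the 14 falls called by limma at an adjusted p of 0.05, which are 0.0997% of the 14044 genes tested. Calls in either direction made up 1.55% of those genes, and 1.45% were called higher. Of the 9 genes, 5 passed the filter, and 2 of those 5 were called, Insm1 and Lmo3, both lower. Nothing is read from that share, because these calls chose the set. Within line pairs, the log2 difference of Insm1 was -0.69 in line 1, -0.98 in line 2, -0.87 in line 3 and -0.86 in line 5. The median difference of all filtered genes was 0.22, -0.25, 0.10 and 0.08 in lines 1, 2, 3 and 5. Less these medians, Insm1 differed by -0.915, -0.72, -0.98 and -0.94, so line 2 had the largest fall before this step and the smallest after it. The spread between lines was small beside the difference itself, and 4.05% of all filtered genes were lower in del/del in all 4 lines. Without female fl/fl 2 the log2 difference was -0.90. In females alone Insm1 was not called, was called with the line as a block, and was again not called with the block and centring on the median, at log2 differences of -0.85, -0.85 and -0.86.

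**Figure D2:**
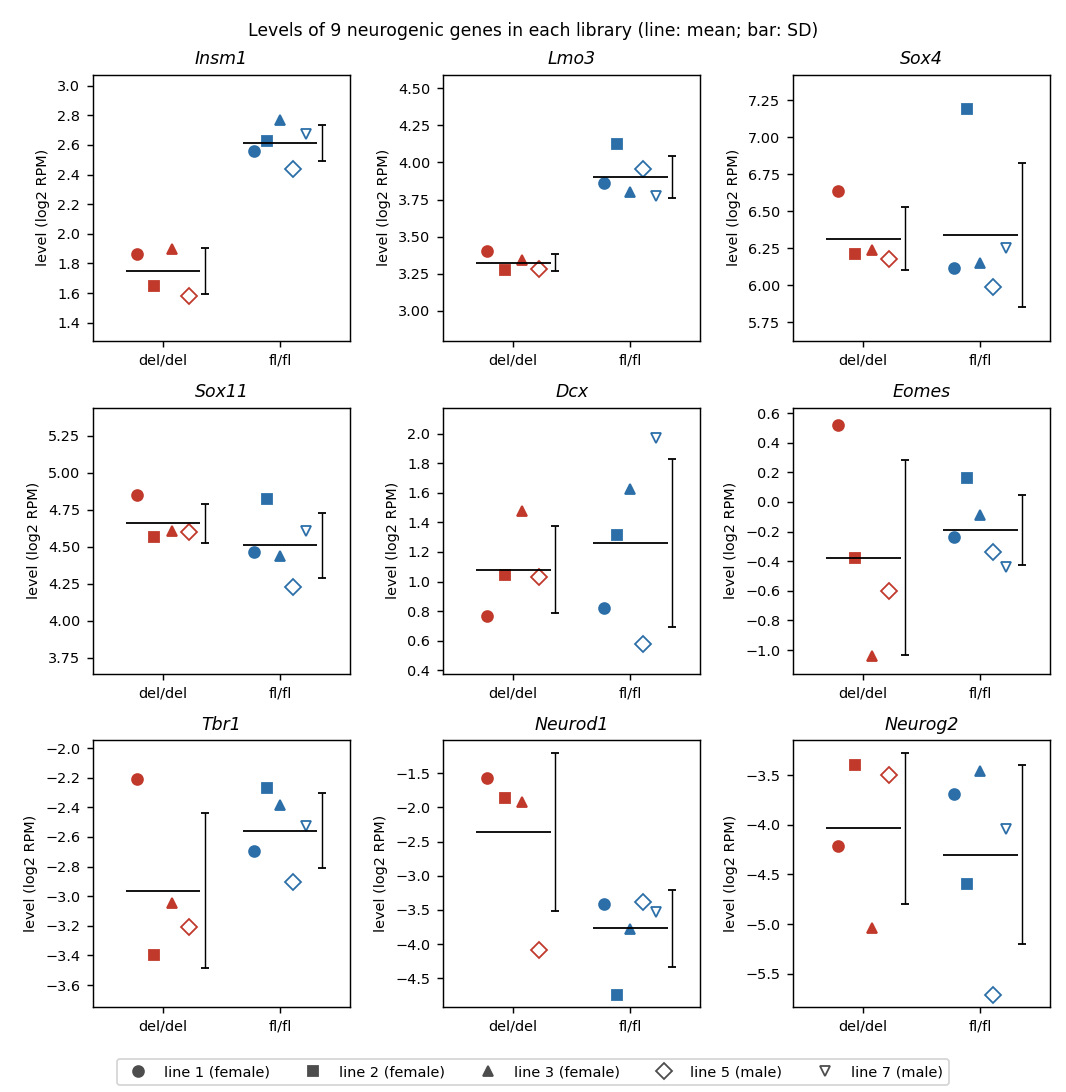
Log2 RPM of each of the 9 genes in every library, del/del left of fl/fl, females filled and males open, with group means (lines) and SD (bars). Insm1 and Lmo3 show del/del points wholly below the fl/fl points, while the other genes overlap.

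Lmo3, a LIM-only protein that binds other transcription factors and has no DNA-binding domain of its own, was the other gene called lower. Its row covers 219051 bp of chromosome 6 (138362918 to 138581968, minus strand), of which 5135 bp are exon. The level was 3.40, 3.28 and 3.34 log2 RPM in female del/del 1, 2 and 3 and 3.28 in male del/del 5. In female fl/fl 1, 2 and 3 it was 3.86, 4.12 and 3.801, and in male fl/fl 5 and 7 it was 3.96 and 3.78. Again each del/del library lay below each fl/fl library. The log2 difference of Lmo3 was -0.59 (SE 0.100), number 10 in size among the falls, and the pair differences were -0.46, -0.85, -0.46 and -0.68 in lines 1, 2, 3 and 5. Less the median of all filtered genes in each line, the pair differences were -0.68, -0.59, -0.56 and -0.76.

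Another row, A830011K09Rik, lies inside Lmo3 on the opposite strand, and its reads equal 3.33% to 11.1% of those of Lmo3, taken here as counted in both rows. With those reads left out, Lmo3 measured 3.12 to 3.33 log2 RPM in del/del and 3.65 to 4.07 in fl/fl libraries, and the log2 difference was -0.63. The genes Gm30332 and B230110G15Rik also overlap Lmo3 on the opposite strand. They have no row there, so their reads could not be left out. The call of Lmo3 was lost without female del/del 1, 2 or 3, male del/del 5 or male fl/fl 5, and among the 6 libraries of lines 2, 3 and 5. Its direction held in all 21 alternatives tried, with log2 differences of -0.66 to -0.53 and the value nearest 0 without female fl/fl 2. Of the 20 alternatives tried, the call of Insm1 was lost in 1, without male del/del 5, where its log2 difference was -0.85. The alternatives refit the values by which both genes were chosen, so they describe the processing and add no support.

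The promoter of Lmo3, a member called lower, holds the motif CANNTG (an E-box) at 2 places. It is the RefSeq promoter in GRCm38.p6, chr6:138581919-138582218, read on the minus strand, and runs from 250 bases before the start to 50 after it. Capitals mark the E-boxes, both CAGTTG.
Lmo3: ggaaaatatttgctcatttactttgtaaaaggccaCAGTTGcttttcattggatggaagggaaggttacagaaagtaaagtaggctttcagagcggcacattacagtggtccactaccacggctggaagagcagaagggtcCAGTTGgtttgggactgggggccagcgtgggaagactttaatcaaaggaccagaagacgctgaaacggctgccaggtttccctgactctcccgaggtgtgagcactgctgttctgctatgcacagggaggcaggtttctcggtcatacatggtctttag
The motif was searched on both strands, and 72.3% of 32851 mouse promoters of the same length hold at least 1 match. Of the 9 genes, 8 had a promoter in the RefSeq table. Matches to CANNTG were found in those of Neurod1 (1), Tbr1 (1), Sox4 (1), Sox11 (2) and Lmo3 (2), and none in those of Neurog2, Eomes or Dcx. Neither CAGATG nor its complement CATCTG, found in 17.2% of promoters, occurred in any of the 8. CAGCTG, found in 16.3% of promoters, occurred once each in those of Sox4 and Sox11, which were not called, and not in that of Lmo3.

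Neurod1, a bHLH factor of the last division and early neuronal stage, had few reads, and more of them in the female del/del libraries than elsewhere. It had 25, 29 and 26 reads in female del/del 1, 2 and 3 but 6 in male del/del 5. In female fl/fl 1, 2 and 3 it had 11, 0 and 8 reads, and in male fl/fl 5 and 7 it had 10 each. On the log2 RPM scale the female del/del libraries lay at -1.57, -1.86 and -1.93, above every fl/fl library. Male del/del 5 lay at -4.09, below every fl/fl library with a read. Only female fl/fl 2 lay lower (-4.74), at the value entered for 0 reads. Within pairs the difference was 1.84 in line 1, 1.85 in line 3 and -0.69 in line 5, and in line 2, where the fl/fl library had no read, it was at least 2.22-fold (against 3 reads per library).

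With so few reads Neurod1 did not pass the filter. The fit over the 22321 genes with a read gave a log2 difference of 2.19 (SE 0.543) in females, which did not pass the threshold (0.0134% of genes did). The same fit with the line as a block did pass it (SE 0.634), and with centring on the median as well it did not. Without female fl/fl 2 the female difference was 1.81. In the same table, 2208 genes (9.89%) had every female del/del library above every female fl/fl library. The difference between the female and the male effect was 2.82 (SE 0.979) and did not pass the threshold. It rests on male del/del 5, with 6 reads, and takes in the value entered for 0 reads in female fl/fl 2. An unadjusted p under 0.05 was found for 0.762% of genes in that fit. No p-value is read for Neurod1, because the opposite signs of its female and male pairs had already been seen. The row of Neurod1 lies inside that of Cerkl on the same strand, and the log2 difference of Cerkl was -0.54 (SE 0.192). Outside Neurod1, Cerkl had 881 to 1121 reads in del/del and 570 to 1888 in fl/fl libraries. A noncoding RNA gene on the opposite strand, Gm26755 (chr2:79453985-79461107), also overlaps the row of Neurod1 and has no row there. Rows count both strands, so neither its reads nor those of Cerkl transcripts in this span can be told apart from those of Neurod1.

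The promoter of Neurod1, chr2:79456587-79456886 (GRCm38.p6, RefSeq, minus strand), is shown because the female pairs and the male pair differ in sign at this gene. Its single E-box, CATATG, is in capitals.
Neurod1: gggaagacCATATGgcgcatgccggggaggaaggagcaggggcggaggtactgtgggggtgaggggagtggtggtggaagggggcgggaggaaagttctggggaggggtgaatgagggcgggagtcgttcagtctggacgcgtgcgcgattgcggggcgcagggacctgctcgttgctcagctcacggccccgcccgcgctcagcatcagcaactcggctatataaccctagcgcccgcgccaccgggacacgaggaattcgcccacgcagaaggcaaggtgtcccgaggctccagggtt

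**Figure D3:**
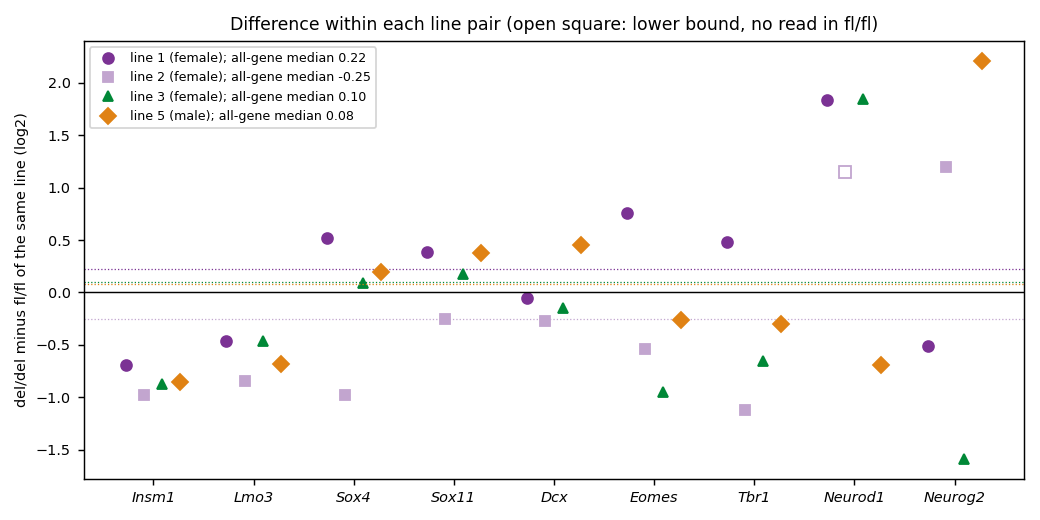
Log2 difference, del/del minus fl/fl, within each line for each gene, with lines 1, 2, 3 and 5 drawn as separate points and dotted lines at the median of all filtered genes in each line. Insm1 and Lmo3 lie below 0 in all 4 lines, Neurod1 lies above 0 in the female lines and below 0 in line 5, and the open square is a lower bound for line 2, where the fl/fl library had no read.

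Neurog2, which stands at the top of the programme, had 1 to 10 reads per library. It had 4, 10 and 3 reads in female del/del 1, 2 and 3 and 9 in male del/del 5, against 9, 1 and 10 in female fl/fl 1, 2 and 3 and 2 and 7 in male fl/fl 5 and 7. The counts overlap throughout, and no difference was detectable at this depth (log2 0.22, SE 0.596).

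Eomes and Tbr1, T-box factors of intermediate progenitors and of deep-layer neurons, were low too. Eomes had 106, 81, 48 and 67 reads in del/del 1, 2, 3 and 5 and 99, 27, 103, 83 and 85 reads in fl/fl 1, 2, 3, 5 and 7, and its log2 difference was -0.24 (SE 0.319). Tbr1 had 10 to 16 reads in del/del and 5 to 21 in fl/fl libraries, with a log2 difference of -0.45 (SE 0.397). For both, the pair difference in line 1 was above 0 (0.75 for Eomes, 0.49 for Tbr1) and that in the other lines below it (-0.95 to -0.27 for Eomes, -1.12 to -0.31 for Tbr1).

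Sox4 and Sox11, the SoxC factors, were among the well expressed genes and overlapped between groups. Sox4 measured 6.63, 6.21 and 6.24 log2 RPM in female del/del 1, 2 and 3 and 6.18 in male del/del 5. In the fl/fl libraries it measured 6.11, 7.19 and 6.15 in females 1, 2 and 3 and 5.99 and 6.25 in males 5 and 7. One library, female fl/fl 2, thus lay apart from the rest. Sox4 differed by -0.07 (SE 0.229), and by 0.17 without female fl/fl 2, neither of which was called. Its pair differences were 0.52, -0.98, 0.09 and 0.19 in lines 1, 2, 3 and 5. Sox11, whose row covers 2013 bp of chromosome 12 and thus part of the gene as GENCODE draws it, averaged 4.66 ± 0.131 in del/del and 4.51 ± 0.220 in fl/fl libraries (SD, n = 4 and 5), a difference of 0.13 (SE 0.128).

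Dcx, the microtubule-binding protein of migrating neuroblasts, is on chromosome X. It measured 0.77, 1.05 and 1.47 log2 RPM in female del/del 1, 2 and 3 and 1.03 in male del/del 5. In female fl/fl 1, 2 and 3 it measured 0.82, 1.31 and 1.62, and in male fl/fl 5 and 7 it measured 0.58 and 1.97. The 2 male fl/fl libraries are the lowest and the highest of all 9, and the log2 difference was -0.18 (SE 0.301).

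Sex was a comparison the choice of genes did not use. Between female and male fl/fl cultures, 0 of the 5 filtered genes passed the test, beside 0.0356% of all genes, and their log2 differences (female minus male) ran from -0.02 for Dcx to 0.37 for Sox4 (limma, adjusted p at least 0.992). The value of Sox4 rests on female fl/fl 2, and without that library it was 0.01 (SE 0.170), while those of Sox11 and Lmo3 were 0.03 and -0.04. Between fl/fl sexes 0.0997% of all genes had an unadjusted p under 0.05 (limma), far fewer than evenly spread p-values would give. A gene that did not pass is therefore not shown to be equal between the sexes. The effect of deletion was compared between sexes for the same 5 genes. That comparison rests on 1 male del/del library and left out the pairing by line. It cannot show that the effect is equal in both sexes. For Insm1 the log2 effect was -0.85 (SE 0.154) in females and -0.97 (SE 0.231) in males, a difference of 0.13 (SE 0.278). For Lmo3 it was -0.59 in both sexes (SE 0.134 in females, 0.201 in males). The adjusted p of the difference was 0.9999 for each of the 5. None of the 14044 genes passed the test of this difference by limma (0 by voom on the recovered reads), and 6, or 0.0427%, had an unadjusted p under 0.05. Within females alone 0.0142% of genes were called and within males 0%, and the members called were 0 of 5 in each.

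Other genes of the programme were taken from 9 lists of known members (129 genes, of which 99 passed the filter and are called filtered here). Of the 99, 0 rose and 0 fell in del/del cultures by limma at an adjusted p of 0.05; 40 lay above 0 and 59 below it, with a median log2 difference of -0.02, beside a median of -0.00 over all genes tested. In all, 8 had an unadjusted p under 0.05, beside 9.84% of all genes. With the line as a block, 3 of these 99 passed: Myt1l, Tshz3 and Ldb2, all higher, beside 3.99% of all genes, and they are named after their values were seen. With the block and centring on the median, 2 of the 99 passed, Myt1l higher and Ebf1 lower (log2 difference -0.55), beside 1.78% of all genes. Myt1l, a repressor of non-neuronal genes, averaged 0.64 ± 0.225 log2 RPM in del/del and -0.95 ± 0.567 in fl/fl libraries (SD), with an adjusted p of 0.0596 without the block and 0.0145 with it (limma). Tshz3 and Ldb2 lay 0.55 and 0.81 higher with the block (limma, adjusted p = 0.0346 and 0.0369).

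The values given for list genes are log2 differences, del/del minus fl/fl. Among proneural bHLH factors 2 of 12 passed the filter, and Bhlhe22 lay at 0.85 (SE 0.902). The 12 E proteins and bHLH antagonists had a median of -0.08, with Tcf3 at -0.08, Tcf4 at -0.12 and Tcf12 at -0.14. The 15 filtered partners of INSM1 and neuroendocrine genes had a median of -0.10; Kdm1a, Hdac2 and Zmym2, subunits of the corepressor that INSM1 recruits, lay at -0.07, -0.13 and -0.15. None of these passed the test.

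Intermediate progenitor genes (13 filtered) had a median of -0.02, with Btg2 at 0.12, Gadd45g at -0.06 and Elavl4 at -0.33. Cortical neuron factors (17 filtered) had a median of 0.06, and Nfia, Nfib and Nfix lay at 0.11, -0.10 and 0.17. Ventral forebrain and interneuron factors (9 filtered) had a median of -0.02, with Meis2 at -0.02, Etv1 at -0.15 and Prox1 at 0.27. Doublecortin and migration genes (20 listed, 18 with a row of that symbol, 16 filtered) had a median of -0.09. Dclk1 lay at 0.03, Dclk2 at 0.12 and Dpysl3 at -0.09. SoxC and partner genes (8 filtered) had a median of -0.08, with Sox2 at -0.13, Sox9 at -0.09 and Marcks at -0.22. LIM-only and LIM cofactor genes (8 filtered) had a median of 0.02, with Lmo4 at -0.20, Ldb1 at -0.00 and Ssbp3 at -0.02.

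**Figure D4:**
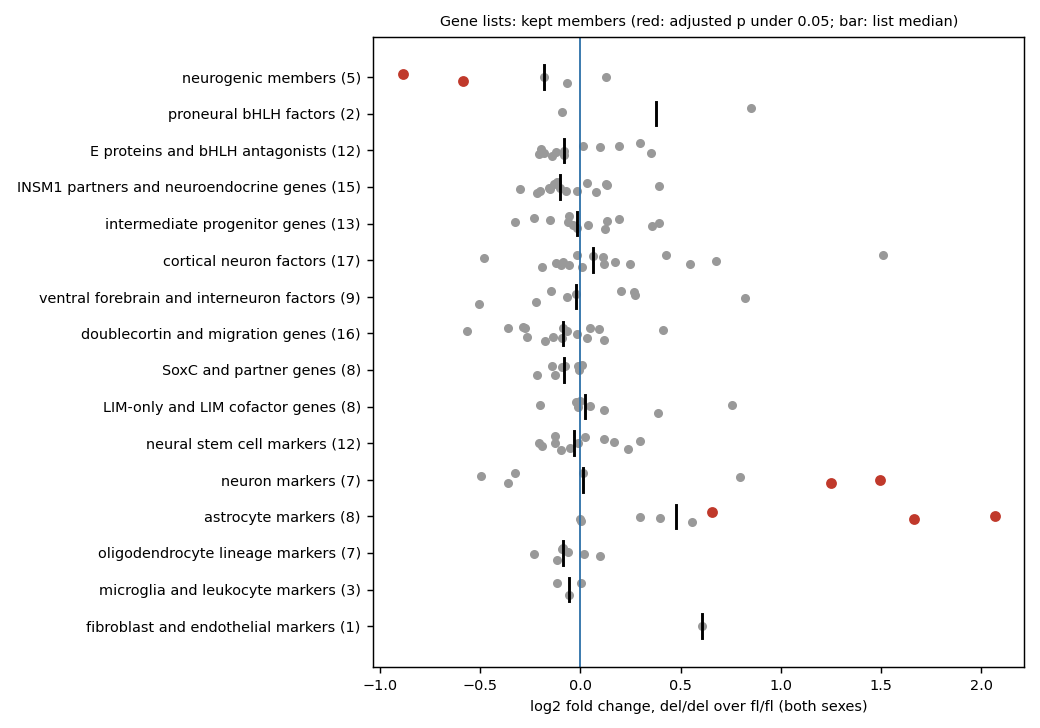
Log2 difference, del/del minus fl/fl, of the filtered genes of each list, 1 point per gene, red where the adjusted p was under 0.05, with a bar at the median of each list. Medians of the programme lists lie from -0.10 to 0.06, apart from the proneural bHLH list, whose median of 2 filtered genes lies higher. Gfap, Aqp4, Nefm and Nefl lie well above 0. So does Myt1l of the cortical neuron factors (1.51), which is not red.

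Markers of other cell types moved beside these genes. Of 8 astrocyte markers, 3 rose in del/del cultures: Gfap by 2.07, Aqp4 by 1.66 and Slc1a2 by 0.66 on the log2 scale (limma, adjusted p = 0.0194, 0.0231 and 0.0318), where 1.45% of all genes rose. The most abundant of the list, Slc1a3, Aldh1l1 and Aldoc, had log2 differences of -0.00, 0.30 and 0.00 and did not pass. Summed over the list, astrocyte markers reached 290 to 384 RPM in del/del and 228 to 431 RPM in fl/fl libraries, so the sums overlapped. Of 7 filtered neuron markers, 2 rose, the overlapping neurofilament genes Nefm (1.49, adjusted p = 0.00428) and Nefl (1.25, adjusted p = 0.00751), while Tubb3 (-0.36), Rbfox3 (-0.50), Syt1 (-0.33), Snap25 (0.01) and Gad1 (0.80) did not pass. Of the 12 listed neuron markers, 11 had a row of that symbol, and Nefm, Syt1 and Gad1 were the most abundant of these. These 11 summed to 116 to 131 RPM in del/del and 74.7 to 97.5 RPM in fl/fl libraries. Map2 is listed too, but its row carries the older symbol Mtap2 and was left out of the counts and sums. Its log2 difference of -0.24 (SE 0.224) did not pass. Of the neuron markers below the filter, Slc17a6, a defining gene of glutamatergic neurons, had 0 to 2 reads and Slc17a7 had 13 to 24. Gad2 (7 to 98 reads) and Stmn2 (0 to 60 reads) averaged higher in del/del. They lay at -0.10 and -1.67 log2 RPM there and at -1.99 and -4.38 in fl/fl libraries. With the line as a block Gad1, of the same list, passed too (0.66, limma, adjusted p = 0.0348). Without male del/del 5 none of the 5 calls held, at log2 differences of 1.35 for Nefm, 1.07 for Nefl, 1.84 for Gfap, 1.46 for Aqp4 and 0.64 for Slc1a2 (limma, adjusted p of 0.0717, 0.0930, 0.186, 0.237 and 0.258). Under quantile scaling Gfap and Aqp4 were not called (log2 differences of 1.94 and 1.499, limma, adjusted p of 0.0506 and 0.0801). The astrocyte calls were also lost without female del/del 1 or 2 or female fl/fl 3 (limma, adjusted p of 0.0538 to 0.146), those of Aqp4 and Slc1a2 without female del/del 3 (0.0551 and 0.0693), and without male fl/fl 5 the call of Slc1a2 was lost (0.0580). The part of these markers in the fall of Insm1 was not tested.

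Oligodendrocyte lineage markers (7 of 9 filtered, 235 to 289 RPM in del/del, 204 to 397 RPM in fl/fl), microglia and leukocyte markers (3 of 8 filtered, 106 to 118 RPM in del/del, 93.7 to 127 RPM in fl/fl) and fibroblast and endothelial markers (1 of 9 filtered, 4.30 to 15.8 RPM in del/del, 2.86 to 4.76 RPM in fl/fl) had no member that passed. Their median log2 differences were -0.09, -0.06 and 0.61. Olig1, Olig2 and Cnp lay at -0.09, -0.23 and -0.09, and Csf1r and P2ry12 at -0.06 and -0.12. Among microglia markers Cx3cr1 had 2773 to 12863 reads, while C1qa had 0 reads in every library.

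The genes whose level followed Insm1 most closely over the 9 libraries were sought among 12130 filtered genes, leaving out predicted gene names and rows that overlap it. By Pearson's r they were Sh3kbp1 (0.966), Fads3 (0.945), Vash2 (0.940), Ptprd (0.936) and Csrnp3 (0.931). For Lmo3 they were Smchd1 (0.979), Syt6 (0.972), Gsg2 (0.952), Hhip (0.952) and Serpine3 (0.950). All of them are lower on average in the del/del libraries, the libraries share the difference between the groups, and no p-value is attached. The choice depends on the scaling: after centring each library on its median, 0 of the 5 remained among the nearest to Insm1 and 2 of the 5 among those nearest to Lmo3.

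**Figure D5:**
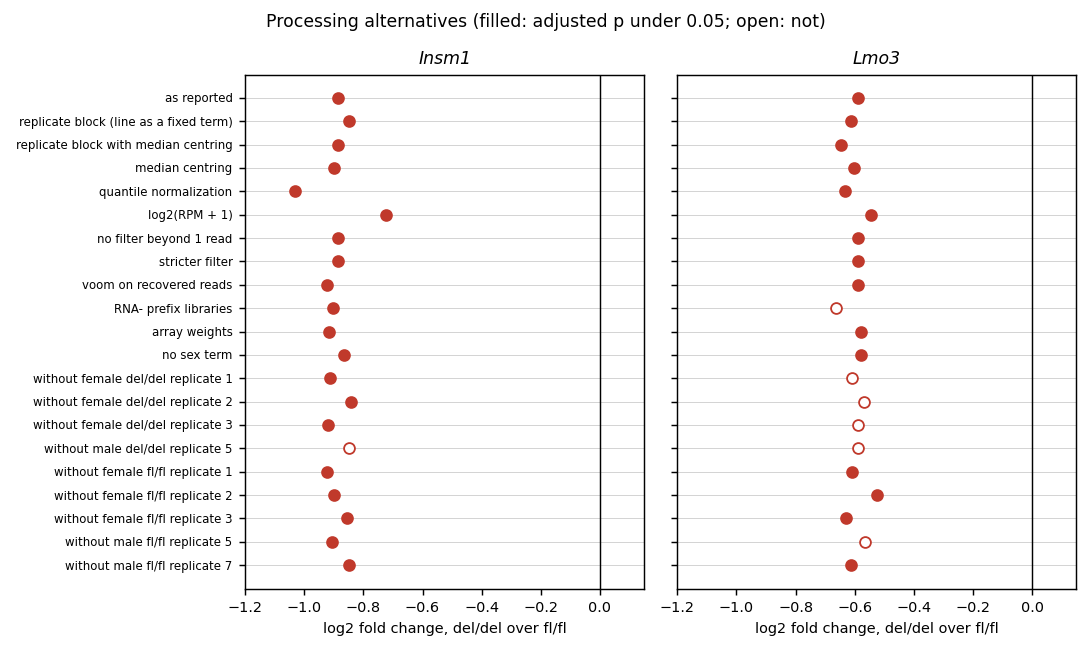
Log2 difference of Insm1 and Lmo3 between del/del and fl/fl over both sexes under each alternative fit, with the value as reported in the top row, filled where the adjusted p was under 0.05 and open where it was not. All values of Insm1 lie between -1.03 and -0.72 and all values of Lmo3 between -0.66 and -0.53.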

How the data were processed

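RNA-seq libraries of 4 del/del and 5 fl/fl cultures were analysed. The authors deposited log2 values per gene and library. By its values, each is log2 of a whole number of reads (within 0.05 reads, in 99.9961% of values or more) scaled to reads per 1000000, with 0 reads entered as 0.9. Per the submitters' processing notes, bcl2fastq, TopHat2 2.0.12, edgeR 3.8.2 and build mm10 were used; for the read counter, the annotation and strandedness, the step was not given in the sources used here. Rows, by their values, count reads over whole gene spans on both strands: where a row lies within an intron of another, the outer row had at least as many reads as the inner one in 2314 of 2314 values for opposite strands and 1153 of 1153 for the same strand (inner row of 10 reads or more).

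Sample titles gave the groups. The filter asked for a log2 value of 0 or more in 3 or more libraries and left 14044 genes, and a second fit used the 22321 genes with a read for the low members. Tests were two-sided with limma 3.58.1 in R 4.3.3, on the deposited log2 values, over all 9 libraries with sex as a term, or as 4 group means; adjustment was Benjamini-Hochberg, with a threshold of 0.05. Male del/del 5 has no replicate and takes its spread from the other groups. The test was tried on simulated data with no shared line effect, so that trial says nothing of the pairing. The growth protocol says that each line was divided, so same-numbered libraries are pairs. Deviations from the group means had r of 0.868, 0.582 and 0.758 within lines 1, 2 and 3, and 0.728 between female del/del 2 and female fl/fl 3. No 2 libraries were identical (highest r 0.9932). 0 columns of per-sample values were left unused.

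Promoters were read from RefSeq (GRCm38.p6), and gene places and exons from the table and GENCODE M21. The members and the lists were chosen with earlier results of these data known; of each list the genes that passed and the 3 with the highest mean level are named, with others marked as chosen later. The values of 1 list gene are not reported here. Alternatives covered the scaling, the filter, the pseudocount, voom on recovered reads, array weights, the line block, the 6 libraries of lines 2, 3 and 5 (whose descriptions begin with RNA-) and each library left out.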

Additional observations from a re-analysis of the deposited data

Results flagged for a closer look

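Single libraries lay far from their group for 3 of the genes by Dixon's test, in which chance alone marks about 1 in 20 groups. That test sets the gap to the next library against the range of the group, here del/del or fl/fl. Neurod1 was at -4.09 log2 RPM in male del/del 5, below the other del/del libraries, and at -4.74 in female fl/fl 2, which had no read. The latter is the value entered for 0 reads in the shallowest library, and its gap share of 0.714 was barely above the limit of 0.71. Sox4 was at 6.63 in female del/del 1 and 7.19 in female fl/fl 2, above the rest of each group. Sox11 was at 4.85 in female del/del 1. The share of reads in genes was 44.4% in female del/del 1 and 53.3% in female fl/fl 2, above the other libraries, and its part in these values was not tested.

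The effect of deletion on Neurod1 differed between females and males by 2.82 on the log2 scale, with every female pair higher in del/del and the male pair lower, and the difference did not pass the test (limma, adjusted p = 0.9999). Dcx was lower in del/del in the 3 female pairs and higher in that of line 5, while the fitted difference of effects, which uses both male fl/fl libraries, was 0.0884 (limma, adjusted p = 0.9999).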

How the results depend on the processing

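Insm1 lay below 0 in 20 of 20 alternatives (-1.03 to -0.72) and Lmo3 in 21 of 21 (-0.66 to -0.53). Of those for Lmo3, 1, without the reads shared with A830011K09Rik, was chosen after seeing the data. All refit the values by which these genes were chosen, and so are a description. Of the 2 members called over both sexes, 1 (Insm1) remained in the libraries of lines 2, 3 and 5, and 0 to 2 with 1 library left out. The 217 genes called over both sexes became 561 with the line as a block (pairing by line), 104 with quantile scaling, 91 with the stricter filter (log2 of at least 2), 1374 with array weights and 2 (without male del/del 5) to 252 with 1 library left out; 93.5% of the calls were higher as reported, 82.7% with quantile scaling and 81.7% with array weights. In females 2 genes were called as reported, 275 with the block, 24 with block and median centring, 1 with median centring, 39 with log2(RPM + 1), 0 with the stricter filter, 0 in the libraries of lines 2, 3 and 5, 2263 with array weights and 0 to 7 with 1 left out. Of the 5 filtered members, 0 were called in females as reported, 1 with the block (Insm1), 0 with block and median centring, 2 with array weights and 0 with 1 left out; Neurod1, from the fit over genes with a read, was called with the block too. Between fl/fl sexes, 5 genes became 2 with the stricter filter and 2 to 6 with 1 left out. Of the 5 genes nearest Insm1, 0 remained with median centring and 1 to 5 with 1 left out; of those nearest Lmo3, 2 and 2 to 4; these were chosen after seeing the data. Among the 133 filtered list genes, 2588 of 2641 values kept their call, 21 lost it (Gfap, Aqp4, Slc1a2, Nefl, Nefm), 29 gained it and 0 reversed. The block gave calls to Myt1l, Tshz3, Ldb2 and Gad1 among them. Causes were not tested. Depth limits Neurog2, Neurod1, Tbr1 and Eomes, with at most 106 reads per library.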
